A study of Drosophila melanogaster with 18 samples.

Results

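ChIPCRM5405 is a mesodermal enhancer of Drosophila melanogaster that was assayed as 8 reporter constructs: the wildtype sequence (WT), the enhancer with the sites of Deaf1 (D), Schlank (S) or ZIPIC (Z) mutated, and every combination of these mutations (DS, DZ, SZ and DSZ). All tags whose construct name begins with ChIPCRM5405 were taken, which gave 28 of the 312 tags and 8 of the 93 constructs of the library. The deposited names write the ZIPIC mutation as 7, after the gene's earlier name CG7928, and it is written Z here. The question addressed by the series was what each motif contributes to the activity of the enhancer, alone and beside the others.

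The assay was quantitative enhancer-FACS-seq (QeFS), which counts reporter RNA and reporter DNA from the same sorted embryonic cells. A pool of enhancer reporters was integrated with ΦC31 integrase at the attP40 landing site of a w- nos-ΦC31 strain, so that each transformed fly carried 1 random member of the pool. Transformed males were crossed either to twi:CD2 or to mef2[IE-D5]:CD2 virgin females, and their embryos, collected over 2.25 hours and aged for 11 hours at 18°, were dissociated and sorted on an antibody to rat CD2. Cells of the twi:CD2+ sort were collected 3 times and those of the mef2:CD2- sort 6 times, as replicates 1 to 3 in week 1 and 4 to 6 in week 2, and each collection gave 1 RNA and 1 DNA library. In the twi:CD2 embryos, rat CD2 was driven by the promoter of twist, and the CD2-positive sort represents the whole mesoderm. In the mef2[IE-D5]:CD2 embryos, CD2 was driven by an enhancer of Mef2 active in fusion-competent myoblasts, and the CD2-negative sort is the remaining bulk of the embryo, a mixture of cell types that still holds other mesoderm. The counts come from reporter tags alone, so no marker gene could be used to check the sorted cells.

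An enhancer is a stretch of DNA that binds transcription factors and raises transcription from a promoter, and mutation of a binding site can lower or raise its output depending on whether the bound factor activates or represses. Deaf1 is a DNA-binding protein first described as a cofactor of the Hox protein Deformed, with activating and repressing roles. Schlank is a ceramide synthase of the membrane that also carries a homeodomain and takes part in lipid homeostasis. ZIPIC is a zinc finger protein associated with insulators that binds CP190, a protein shared by several insulator complexes.

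The mutations were small. In the first 385 bases of the enhancer, the stretch that was read here, the Deaf1 mutant differed from WT by T309A and G385C, the Schlank mutant by G169C, and the ZIPIC mutant by G203C, G204C, C248G and C249G. The first letter is the wildtype base, the number is the position counted from 1 at the first enhancer base after the construct's barcode and restriction site, and the last letter is the mutant base. The double mutants and DSZ carried exactly the sum of these, 7 substitutions in DSZ. The Schlank substitution lay 34 bases before the first ZIPIC substitution, the ZIPIC pairs lay 45 bases apart, and the last ZIPIC substitution was 60 bases before the first Deaf1 substitution. Sites beyond base 385 were not analysed here, and the position of the enhancer in the genome was not used.

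Each reporter was read through a short degenerate tag in its 3′ UTR, cloned independently of the other tags of the same construct. Tags are lettered within a construct by the alphabetical order of their sequences, counting only those that could be measured. The tags of DZ, whose values differed most within a construct, and the single tag of Z, with which DZ is compared, are printed in lower case throughout since no base of a tag has a known role.
Z tag a: taactaagtacgagggaaac
DZ tag a: aaaaatcgggtaattcatca
DZ tag b: cagagaaagacttcggaaat
DZ tag c: tcaccatgcaacaaaactca
The GC content of the measured ChIPCRM5405 tags ran from 15% to 85%, with both extremes in single-motif mutants (S tag a and D tag b). Across tags, GC content and mean activity had a Spearman's ρ of -0.30 over 19 tags in the twi:CD2+ sort and 0.40 over 20 tags in the mef2:CD2- sort, given as a description, as the tags share libraries and differ in construct.

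Molecules were counted as unique molecular identifiers (UMIs), random 8-base sequences attached once to each copied molecule. Activity was calculated per tag and collection by dividing the tag's share of all RNA UMIs by its share of all DNA UMIs, so that 1 is the average of the library weighted by DNA. A tag was measured in a collection if it had at least 65 DNA UMIs and at least 1 RNA UMI, and each such value is 1 observation. Of the 28 tags, 20 were measured in at least 1 collection. The other 8 never exceeded 19 UMIs in any library, and they were 1 tag each of WT, D, S, Z and DS and 3 of SZ. This left 19 tags with 51 observations in twi:CD2+ cells, and 20 tags with 93 observations in mef2:CD2- cells. Z was represented by 1 tag, S and SZ by 2, and the other constructs by 3, except that DS had 2 in twi:CD2+ cells. A fly carries 1 tag, so tags, not only collections, are sources of biological variation, and the same tag returns in several collections.

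Depth differed between the populations. DNA libraries held 317396 to 621449 UMIs for the twi:CD2+ sort but 54038 to 248151 for the mef2:CD2- sort, and RNA libraries held 813922 to 1366066 and 560294 to 1201998. The median observation of the ChIPCRM5405 tags rested on 1464 DNA UMIs for twi:CD2+ and on 249 for mef2:CD2-. Counting error corresponded to a median SD of 0.07 and 0.12 on the log2 scale, with maxima of 0.19 and 0.29, and it covers counting only. The ChIPCRM5405 tags together took 5.62% to 6.53% of the DNA UMIs but 1.89% to 2.91% of the RNA UMIs in twi:CD2+ cells, and 3.95% to 5.01% against 0.89% to 1.38% in mef2:CD2- cells. In every collection of both populations their share of RNA was thus below their share of DNA.

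The wildtype enhancer was weak on this scale. In twi:CD2+ cells its mean over the tags of a collection was 0.142, 0.520 and 0.761 in replicates 1, 2 and 3, and the mean of its observations was 0.516 ± 0.490 (SD, n = 8). It ranked 6 among the 11 wildtype enhancers of the library with at least 4 observations, whose means ran from 0.0366 to 7.90. In mef2:CD2- cells the collection means of WT had a lowest value of 0.138, a median of 0.209 and a highest value of 0.395, with an overall mean of 0.271 ± 0.134 (SD, n = 14). It ranked 7 of 11 there. The collections of the populations overlapped, and the SD of WT in twi:CD2+ cells was nearly as large as its mean.

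Much of that spread lay in 1 of the 3 wildtype tags. WT tag a had activities of 0.921 and 1.52 in twi:CD2+ replicates 2 and 3, on only 143 and 81 DNA UMIs. WT tag b, the most abundant, gave 0.120, 0.201 and 0.161 in the 3 replicates. WT tag c gave 0.164, 0.436 and 0.605. In replicate 1, where WT tag a was below the DNA minimum with 2 DNA UMIs, the wildtype mean was the lowest of the 3 replicates. Among mef2:CD2- collections, WT tag a was measured in replicates 5 and 6, at 0.300 and 0.398, and lay within 0.0890 to 0.534, the range of the other wildtype tags. Without WT tag a, the wildtype mean in twi:CD2+ cells was 0.281 ± 0.195 (SD, n = 6).

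The 7 mutants covered the same range as WT. In twi:CD2+ cells, the collection means of D were 0.151, 0.578 and 0.222 in replicates 1 to 3, those of S were 0.285, 0.357 and 0.174, and those of Z were 0.298, 0.341 and 0.180. Every single mutant overlapped WT. The means of the observations were 0.242 ± 0.223 (SD, n = 7) for D, 0.292 ± 0.10 (SD, n = 5) for S and 0.273 ± 0.0830 (SD, n = 3) for Z. With 3 observations, Z fell short of the 4 required for the rank tests and is given as a value.

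Among the combined mutants in twi:CD2+ cells, DS had collection means of 0.234, 0.513 and 0.394, and SZ of 0.162, 0.391 and 0.146. DZ had 0.506, 0.453 and 0.663, the narrowest set relative to its size. DSZ had 0.131, 0.271 and 0.448. The means of the observations were 0.380 ± 0.311 (SD, n = 6) for DS, 0.541 ± 0.642 (SD, n = 9) for DZ, 0.272 ± 0.186 (SD, n = 4) for SZ and 0.283 ± 0.259 (SD, n = 9) for DSZ. DZ was thus the only mutant with a mean above that of WT, and the highest and lowest construct means, DZ and D, stood 2.23-fold apart.

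The constructs of the series could not be told apart in twi:CD2+ cells. The Kruskal-Wallis test over the 7 constructs with enough observations gave p = 0.767 (100000 permutations of 48 observations), the highest of the 14 enhancer series tested, where 10 series, 71.4%, had a p under 0.1. None of the 21 pairs of constructs was called different, where 26.6% of the 241 pairs of all series and 25% of the 64 comparisons of a mutant with WT were (exact permutation test of the mean ranks, called at an adjusted p under 0.1 within a series that passed the first test). The smallest unadjusted p of a pair was 0.162, so 0 pairs were under 0.05, and adjusted p-values ran from 0.916 to 0.957. The Conover-Iman test with its t distribution also called 0 pairs. These tests treat observations of 1 tag in several collections as independent.

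The constructs also overlapped in mef2:CD2- cells. The lowest, median and highest collection mean of D were 0.135, 0.225 and 0.376, those of S were 0.115, 0.211 and 0.486 over 5 collections, and those of Z were 0.134, 0.260 and 0.498. WT lay within each of these ranges in its median. The means of the observations were 0.264 ± 0.102 (SD, n = 11) for D, 0.243 ± 0.151 (SD, n = 6) for S and 0.272 ± 0.127 (SD, n = 6) for Z, beside 0.271 for WT.

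For the combined mutants in mef2:CD2- cells, the lowest, median and highest collection means were 0.173, 0.278 and 0.399 for DS and 0.114, 0.362 and 0.543 for DZ. They were 0.0857, 0.202 and 0.263 for SZ over 5 collections, and 0.144, 0.192 and 0.419 for DSZ. The means of the observations were 0.256 ± 0.132 (SD, n = 11) for DS, 0.348 ± 0.428 (SD, n = 17) for DZ, 0.191 ± 0.0797 (SD, n = 10) for SZ and 0.222 ± 0.130 (SD, n = 18) for DSZ. DZ was again the highest construct and SZ the lowest, 1.82-fold apart, and both overlapped WT.

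The Kruskal-Wallis test over all 8 constructs in mef2:CD2- cells gave p = 0.683 (100000 permutations of 93 observations), while 11 of the 14 series, 78.6%, had a p under 0.1. None of the 28 pairs was called, beside 43.6% of the 273 pairs of all series and 50.7% of the 69 comparisons with WT (exact permutation test). The smallest unadjusted p was 0.118 and adjusted p-values ran from 0.881 to 0.967, with 0 pairs under an unadjusted 0.05 and 0 by the Conover-Iman test. Within week 1 alone the Kruskal-Wallis p was 0.198 (permutation test), and within week 2 alone it was 0.442, with 0 pairs called in either. All 7 constructs tested in twi:CD2+ cells and all 8 in mef2:CD2- cells had means below the median construct of the library, 0.556 over 86 constructs and 0.745 over 91.

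Single tags of a construct differed more than the construct means did. Each construct mean averages 1 to 3 tags, and averaging alone can lower the spread between such means. On the log2 scale, the SD between tags of a construct was 1.25 for twi:CD2+ and 0.99 for mef2:CD2-, the SD between collections of the same tag was 0.92 and 0.76, and the SD between the 8 construct means was 0.43 and 0.48. Over all constructs of the library, the SD between tags was 0.81 and 0.78, and the SD between constructs was 2.17 and 2.09. The latter includes differences between enhancers, so it is not a like measure for 1 series. Within the other series, the SD between constructs ran from 0.26 to 2.92 for twi:CD2+ and from 0.17 to 2.71 for mef2:CD2-. The tag spread of ChIPCRM5405 ranked 2 of 14 series in the twi:CD2+ sort and 3 of 14 in the mef2:CD2- sort. In 4 of the 7 constructs with several tags, in each population, the highest tag mean exceeded the lowest by more than the construct means differed over the whole series.

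DZ held the widest gap. DZ tag b gave 1.27, 0.903 and 1.83 in the 3 collections of twi:CD2+ cells, on 3363 to 4938 DNA UMIs. DZ tag a gave 0.137, 0.232 and 0.128, and DZ tag c gave 0.111, 0.225 and 0.0312. The groups did not overlap: every value of tag b lay above every value of the other tags of the same construct. In mef2:CD2- cells, DZ tag b gave 0.616, 1.12, 1.48, 0.259 and 0.930 in replicates 1, 2, 3, 5 and 6. DZ tag a ranged from 0.0794 to 0.245 with a median of 0.167, and DZ tag c from 0.0598 to 0.166 with a median of 0.0677. DZ tag b was the highest of its construct in 8 of 8 collections that measured all 3 tags, by 1.24-fold to 18.7-fold over tag a, and DZ tag a was above tag c in 9 of 9.

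Both DZ means therefore rested on 1 tag. In replicate 4 of mef2:CD2- cells, DZ tag b had 17 DNA UMIs and 3 RNA UMIs, was not measured, and the DZ mean of that collection was the lowest of the 6. Without DZ tag b, the mean of DZ was 0.144 ± 0.0753 (SD, n = 6) in the twi:CD2+ sort and 0.126 ± 0.0653 (SD, n = 12) in the mef2:CD2- sort, 0.279-fold and 0.464-fold of WT. The Kruskal-Wallis p in mef2:CD2- cells was then 0.0271 (permutation test), and 4 of the 28 pairs were called, each with DZ as the lower construct. DZ was then lower than WT (exact permutation test, adjusted p = 0.0372), D (adjusted p = 0.0355), Z (adjusted p = 0.0470) and DS (adjusted p = 0.0470). Leaving out this tag is 1 of 20 such omissions, chosen here for what it changed, and with tags as units no motif effect was called without it. Which of the DZ tags represents the enhancer was not tested.

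The other constructs also held tags that stood apart in single collections. DSZ tag c was 0.901 in twi:CD2+ replicate 3 but 0.109 and 0.10 in replicates 1 and 2, and DS tag c was 0.879 in replicate 2 but 0.206 and 0.133 in the others. D tag a, at 0.197, 0.543 and 0.578 in the 3 replicates by increasing value, was above every value of D tags b and c in twi:CD2+ cells, 0.0565 to 0.154. S tag a gave 0.212 and 0.416 in twi:CD2+ cells and 0.0373 in the 1 mef2:CD2- collection that measured it, on 236 DNA UMIs. Z tag a, the only tag of its construct, had 2137 to 4478 DNA UMIs in twi:CD2+ cells and so carried the Z values with little counting error, but without a second reporter to set them against.

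The effect of each motif was taken on each of the 4 backgrounds of the other motifs, as the ratio of the mean activity of the construct with the mutation to that without it. As a tag is 1 independently cloned reporter, each effect was also fitted on the mean log2 activity per tag, with the spread between tags pooled over all constructs of the library. That fit gives the 95% intervals below, on the log2 scale. The pooled SD between tags was 0.81 in twi:CD2+ and 0.78 in mef2:CD2- cells, below the 1.25 and 0.99 within ChIPCRM5405. For this series the intervals can therefore be too narrow and the p-values of the fit too small. A fit with the tag spread of this series alone was not run. Of the 12 effects, 0 were called in either population at an adjusted p under 0.1 over all series, where 14.2% of 120 and 17.8% of 118 effects were called. At an unadjusted p under 0.05 there was 1 in twi:CD2+ cells, Deaf1 on the wildtype background, and 0 in mef2:CD2- cells.

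Mutation of the Deaf1 sites in the wildtype enhancer gave 0.470-fold of the wildtype mean in twi:CD2+ cells. The ratio was 0.291 in 1 collection and 1.06 and 1.11 in the others, so D was lower in 1 of 3 collections. With tags as units the difference was -1.48 (95% interval -2.78 to -0.18, adjusted p = 0.157 in the linear fit over all constructs). This effect moved with single tags in both directions. The ratio was 0.861 without WT tag a and 0.184 without D tag a. The tag-based effect was called without D tag a (adjusted p = 0.0312 in the linear fit) or without WT tag b (adjusted p = 0.0355 in the linear fit). With a minimum of 10 DNA UMIs, the ratio turned above 1 (0.10 on the log2 scale). In mef2:CD2- cells the ratio was 0.974, with D lower in 2 of 6 collections and a difference of 0.16 (-1.09 to 1.41).

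On the other backgrounds the ratios of means for the Deaf1 mutation were above 1, but all except that on S in twi:CD2+ cells changed side when some single tag or collection was left out. In twi:CD2+ cells they were 1.30 on S, 1.98 on Z and 1.04 on SZ. The mef2:CD2- values were 1.05, 1.28 and 1.17. The ratio on Z compares DZ with Z, and the tag-based differences there were 0.01 (-1.82 to 1.85) in the twi:CD2+ sort and -0.25 (-2.02 to 1.52) in the mef2:CD2- sort, and without DZ tag b the ratios were 0.527 and 0.461. On SZ, the 1.04 of twi:CD2+ cells went with DSZ lower in 2 of 3 collections and a tag-based difference of -0.54 (-1.99 to 0.92), and it was 0.519 without SZ tag a and 0.638 without replicate 3. The mef2:CD2- ratios on S and on SZ each went with lower values in 3 of 5 collections, and both were below 1 without replicate 5, at 0.809 and 0.974. With all tags, none of these ratios was called, and that on Z in twi:CD2+ cells was not among the rank tests. Without DZ tag b, the mef2:CD2- ratio on Z was a called pair (adjusted p = 0.0470, exact permutation test). That call followed an omission chosen for what it changed and was not made with tags as units.

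Mutation of the Schlank site gave ratios below 1 on 3 of 4 backgrounds in the twi:CD2+ sort and on 4 of 4 in the mef2:CD2- sort, of which only that on Z in mef2:CD2- cells stayed below 1 whichever single tag or collection was left out. On WT the ratios were 0.565 in twi:CD2+ cells, with S lower in 2 of 3 collections, and 0.898 in mef2:CD2- cells, with S lower in 3 of 5. Without WT tag a the former was 1.04, and without S tag a the latter was 1.05. The tag-based differences were -0.52 (-1.98 to 0.93) and -1.37 (-2.77 to 0.03, adjusted p = 0.260). The latter gives S tag a, measured once, the same weight as S tag b, measured in 5 collections at 0.192 to 0.486.

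On the D background the Schlank mutation gave ratios of 1.57 in the twi:CD2+ sort and 0.973 in the mef2:CD2- sort. DS was lower than D in 1 of 3 and in 2 of 6 collections. The tag-based differences were 1.01 (-0.44 to 2.46) and -0.67 (-1.92 to 0.58). Without D tag a the twi:CD2+ ratio was 4.01, and with a minimum of 10 DNA UMIs it was below 1 (-0.54 on the log2 scale). Without DS tag a the mef2:CD2- ratio was 1.12. On Z the ratios were 0.998 and 0.701, and the former was 2.00 without SZ tag a and 0.664 without SZ tag b. SZ was lower than Z in 5 of 5 mef2:CD2- collections, by ratios of 0.529 to 0.966, the smallest SD over collections of the effects in these cells (0.32 on the log2 scale), with an adjusted p of 0.881 (exact permutation test of 10 against 6 observations) and a tag-based difference of -0.52 (-2.40 to 1.36) that rests on 2 tags against 1. On DZ the ratios were 0.524 and 0.640, where DSZ is compared with DZ, and without DZ tag b they turned to 1.97 and 1.77. The tag-based differences were -0.31 (-1.61 to 0.99) and -0.13 (-1.39 to 1.12), with DZ tag b included.

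Mutation of the ZIPIC sites in the wildtype enhancer gave 0.529-fold of WT in the twi:CD2+ sort and 1.01-fold in the mef2:CD2- sort. Z was lower in 2 of 3 and in 4 of 6 collections, and the tag-based differences were -0.61 (-2.45 to 1.22) and -0.04 (-1.81 to 1.73). Without WT tag a the twi:CD2+ ratio was 0.970. On the D background the ratios were 2.23 and 1.32, the comparison of DZ with D. Without DZ tag b they turned to 0.594 and 0.476, the latter a called pair (adjusted p = 0.0355, exact permutation test). That call followed an omission chosen for what it changed, treats observations of 1 tag as independent, and was not made with tags as units. The tag-based differences with all tags were 0.88 (-0.42 to 2.18) and -0.46 (-1.71 to 0.79). On S the ratios were 0.934 and 0.785, with tag-based differences of 0.15 (-1.44 to 1.74) and 0.81 (-0.72 to 2.34). On DS they were 0.745 and 0.867, with tag-based differences of -0.44 (-1.89 to 1.01) and 0.08 (-1.17 to 1.33). Without replicate 2 the mef2:CD2- ratio on S was 1.12, and without replicate 3 that on DS was 1.03. In twi:CD2+ cells the ratio on D was the only one above 1, so that without DZ tag b all 4 were below 1. The ratio on S was 1.87 in these cells without SZ tag a.

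The half-widths of these intervals were 1.30 to 1.95 for twi:CD2+ and 1.25 to 1.88 for mef2:CD2- on the log2 scale, and every interval of both populations included a change of 1 log2 unit in at least 1 direction. The missing calls therefore do not show that the constructs act alike. Of the 12 motif effects in mef2:CD2- cells, 4 lay on the same side of 1 in both weeks. Week moved with the levels of several constructs: WT was 0.179 in week 1 (n = 6) and 0.340 in week 2 (n = 8). DSZ was 0.155 and 0.290, SZ 0.129 and 0.232, Z 0.189 and 0.356, DS 0.235 and 0.295, and D 0.257 and 0.276. Lower in week 2 were DZ, at 0.423 and 0.263, and S, at 0.299 and 0.187. The tags behind these means also changed with the week: WT tag a was measured in week 2 only, and DZ tag b was not measured in replicate 4. The part of the week in the motif effects was not tested beyond the values within each week.

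Combined mutations were compared with the product of the single ones in linear models of log2 activity. Of the interactions, 3 could be fitted in twi:CD2+ cells, 7 in mef2:CD2- cells, and 0 were called, where 28.2% of 39 and 38.5% of 52 interactions of all series were (permutation of residuals, adjusted p under 0.1), and 0 were under an unadjusted p of 0.05 in either population. The interaction of Deaf1 and Schlank on the wildtype background was 1.15 ± 0.95 (SE) in twi:CD2+ cells (p = 0.237, permutation test) and 0.08 ± 0.60 in mef2:CD2- cells (p = 0.896, permutation test). That of Schlank and ZIPIC on the D background was -1.11 ± 1.05 in twi:CD2+ cells (p = 0.299, permutation test). In mef2:CD2- cells, Deaf1 and ZIPIC gave -0.42 ± 0.68 on the wildtype background, Schlank and ZIPIC -0.21 ± 0.60, and the product of all 3 motifs 0.41 ± 0.91. Interactions that need Z on its own were not fitted in twi:CD2+ cells, where it had 3 observations.

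The triple mutant, in which all 3 motifs are lost, had 0.549-fold of the wildtype mean in the twi:CD2+ sort and 0.822-fold in the mef2:CD2- sort. DSZ was below WT in 3 of 3 twi:CD2+ collections, by ratios of 0.521, 0.589 and 0.920, and in 3 of 6 mef2:CD2- collections. The adjusted p was 0.916 and 0.881, respectively (exact permutation tests). SZ had 0.528-fold and 0.705-fold, DS 0.738-fold and 0.948-fold, and DZ 1.05-fold and 1.28-fold. The twi:CD2+ ratios rested on WT tag a, which had few DNA UMIs: without it, DSZ had 1.01-fold of WT, SZ 0.967-fold, DS 1.35-fold and DZ 1.92-fold.

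The activity of each construct was also compared between twi:CD2+ and mef2:CD2- cells. The populations come from different crosses and collection days, which cannot be told apart from the cell population. With UMI counts summed over the tags of a construct, edgeR's quasi-likelihood test called 0 of the 8 ChIPCRM5405 constructs at an adjusted p under 0.05, beside 3 of 90 constructs, 3.33% (1.11% higher and 2.22% lower in twi:CD2+ cells). DESeq2 also called 0. In the edgeR test, 20 of the 90 constructs of the library had an unadjusted p under 0.05, and so did 1 of the 8 ChIPCRM5405 constructs. That construct was DZ, with a log2 difference of 1.24 ± 0.43 (SE) and an adjusted p of 0.104. The other 7 differences lay between -0.26 (DS) and 0.21 (S), with 0.01 ± 0.45 for WT.

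The DZ difference moved with the share of DZ tag b, which gave 86.1% to 95.5% of the RNA UMIs of DZ in the twi:CD2+ sort and 0.281% to 91.5% in the mef2:CD2- sort. Its part in the difference was not tested, as tag b did not reach 10 counts in every library and so could not be tested as a feature of its own. Without replicate 3 of mef2:CD2- cells, DZ was called by edgeR, with a log2 difference of 1.51 and an adjusted p of 0.0452 (0.0452 to 0.331 over all alternatives), and without replicate 4, where tag b was nearly absent, it was 0.83 with an adjusted p of 0.0945. Of the 11 tags that could be tested as features, 0 were called.

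Single tags compared between the populations gave no common direction. Of the 19 tags measured in both, 12 had a higher mean in twi:CD2+ cells and 7 a lower one, with ratios from 0.265 (D tag b) to 8.41 (S tag a) and a median of 1.37. The extremes rested on tags measured in 1 mef2:CD2- collection. DZ tag b, at 1.33 against 0.881, was the highest tag of the series in mef2:CD2- cells and in twi:CD2+ cells. Z tag a, the only tag of its construct, was at 0.273 and 0.272.

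The change with each mutation was compared between populations over collections, as the log2 ratio of the mutant mean to the wildtype mean in each. For D it was -0.51 in the twi:CD2+ sort and 0.01 in the mef2:CD2- sort. For DSZ it was -0.61 and -0.16, the smallest p of the 7 mutants (p = 0.179, exact two-sided permutation test of 3 against 6 collections, adjusted p = 0.729). None of the 7 was called to differ, and 6 of the 7 had a more negative value in twi:CD2+ cells, all set against the same wildtype values. With 3 and 6 collections, the smallest p the test allows is 0.0119, and for S and SZ, with 5 mef2:CD2- collections, it is 0.0179. After adjustment over the 7 mutants, 1 mutant alone could not be called at 0.05, whatever its effect. The absence of calls therefore decides nothing.

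The same motifs were mutated in the enhancers CBP2862, CG7759_33 and ChIPCRM3407. Their mef2:CD2- construct means spanned 10.5-fold, 19.1-fold and 11.4-fold, and 19 of 28, 19 of 28 and 13 of 21 pairs were called. In twi:CD2+ cells they spanned 9.13-fold, 2.72-fold and 2.50-fold, with 16 of 28, 8 of 21 and 5 of 15 pairs called. ChIPCRM5405 had 0 calls in both. Whether its motif effects differ from those in the other enhancers was not tested.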

How the data were processed

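UMI counts and read counts per tag were deposited by the authors for each library, without normalization. According to the study's methods, the first 8 bases of a read were taken as the UMI, constant regions were trimmed with cutadapt 1.14, and tags were aligned with Bowtie to the tags of a lookup table. PCR duplicates are removed only as far as UMIs separate them, and the most abundant tag of the series had 15599 RNA UMIs, 23.8% of the 65536 possible sequences, so the highest counts can be too low where UMIs coincide. The UMI counts were used, with read counts as an alternative.

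Groups were taken from the sample titles, and the RNA and DNA library of a collection were paired by its date in the title. Their deviations from the group means correlated at 0.251 to 0.612 over constructs in the 9 collections. Replicates are numbered within a population. The DNA filter (65 UMIs), the least number of observations (4) and the threshold of 0.1 were adapted from the study's methods, which treat each week on its own, whereas both weeks were combined here and also taken alone. Kruskal-Wallis and interaction tests used 100000 permutations (10000 in alternatives), pairs were tested exactly, with Benjamini-Hochberg adjustment within a series for pairs, and across the library for tag-based effects, interactions and edgeR. Analyses were run in Python 3.11.15 with scipy 1.17.1 and in R 4.3.3 with edgeR 4.0.16 (TMM, terms for collection, RNA and RNA in twi:CD2+ cells, 10 or more counts per construct and library) and DESeq2 1.42.0. The exact rank, Kruskal-Wallis, interaction, tag-based and edgeR procedures were tested on simulated data, which held no added spread between tags. The other procedures were not. All 8 constructs and their tags were named, without selection by value; the members, lists and tests were chosen with earlier results of these data known. Enhancer sequences were read from the study's supplementary table. The sequences of the other tags are not reported here.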

Additional observations from a re-analysis of the deposited data

Results flagged for a closer look

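Of 24 sets of 4 to 6 collections of mef2:CD2- cells, formed by construct or by tag, 4 had 1 collection far from the rest. About 1 in 20 is expected by chance for independent sets of normally distributed values. These sets were not independent, as a construct mean holds tags that were also taken singly, so the 4 cannot be set against that rate. DSZ was at 0.419 in 1 collection of mef2:CD2- cells, replicate 5, while the next highest of the 6 was 0.228. The same collection gave the highest value of DSZ tag b, 0.475 against a next value of 0.239, and of DSZ tag c, 0.498 against 0.170, whereas DSZ tag a was at 0.284 there. DZ tag c was at 0.166 in replicate 6 of mef2:CD2- cells, with the next value at 0.0688.

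RNA was present without DNA for 1 measured tag. DS tag b had 102 RNA UMIs in replicate 5 and 162 in replicate 6 of mef2:CD2- cells, above the 3 counts that a count of 0 allows, with 0 DNA UMIs in both, so that it has no activity there. The same tag had 108 DNA UMIs in replicate 1 and an activity of 0.149.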

How the results depend on the processing

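No motif effect or pair of constructs was called under the settings given above, and most alternatives left that as it was: of 311 recomputed main results, 305 kept their call or stayed within the spread between collections. Some of the 311 could hardly move, among them reruns of the test between populations that could not call a mutant on its own. The 305 are therefore a description and do not measure stability. The lowest and highest Kruskal-Wallis p were 0.202 and 0.954 for twi:CD2+, and 0.0271 and 0.857 for mef2:CD2- (permutation tests), where omission of 1 tag or collection gave 0.0271 to 0.837 and DZ tag b the lowest. With the replicate block, in which observations were permuted within collections, it was 0.719 and 0.664, and 0 pairs and 0 interactions were called. The RNA and DNA libraries of a collection are paired in the comparison of populations, where 0 constructs were called with the pairing and 0 with no replicate block. Leaving out 1 tag at a time gave 0 to 4 pairs called in mef2:CD2- cells, with 4 only without DZ tag b. With tags as units, it gave 0 to 1 motif effects in twi:CD2+ cells and 0 to 3 in mef2:CD2- cells. Deaf1 on WT was called in twi:CD2+ cells without WT tag b (-2.15, adjusted p = 0.0355) and without D tag a (-2.20, adjusted p = 0.0312), and 3 effects were called in mef2:CD2- cells without S tag b, which leaves S with the 1 observation of S tag a. Leaving out 1 collection at a time gave 0 to 1 constructs called between the populations (DZ without mef2:CD2- replicate 3).

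Ratios of construct means often changed side of 1: 18 of 128 values for twi:CD2+ and 27 of 160 for mef2:CD2- under settings other than omissions. The ratio of D to WT in twi:CD2+ cells was on the other side of 1 with a minimum of 10 DNA UMIs (0.10 on the log2 scale). In twi:CD2+ replicate 2 that minimum admitted D tag b, with 19 DNA and 192 RNA UMIs, and D tag c, with 63 and 170. The part of each in the change was not tested. Of 1688 recomputed single values, 1641 kept their call or stayed within the spread between collections. Many of them could not move, because the omitted tag belonged to none of the constructs in the value. That count is therefore no measure of how stable the ratios are. Measured values rested on as few as 67 DNA UMIs (S tag b in mef2:CD2- cells), and on 1 to 3 tags per construct.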
